A study of Mus musculus with 2 samples.

Results

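Molecular motors of the kinesin and dynein families, with the dynactin complex, were examined in layer 5 pyramidal neurons of the mouse cortex. The members are the protein-coding genes whose symbol begins with Kif or Klc followed by a digit, or with Dync or Dctn. This rule matched 56 of 43346 annotated genes, or of 21474 protein-coding genes. The rule uses names only. By role they comprise 13 kinesins of intracellular transport, 12 kinesins of mitosis, 14 other kinesin-named genes, 4 kinesin light chains, 5 subunits of cytoplasmic dynein 1, 2 subunits of dynein 2 and 6 subunits of dynactin. The name rule is not the same as the motor family: it takes in Kif1bp, which encodes a kinesin-binding protein and not a motor, and it leaves out kinesins and dynein chains with other symbols, which are described at the end as partners.

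The study holds 2 RNA-seq libraries of 1 group. Laser capture of 50 pyramidal cells of layer 5 from wild-type male mice aged 8 months gave the RNA of each library, which was amplified by a Smart-seq type protocol that copies whole transcripts into cDNA. The labels give the strain variously as B6NCrl, C57Bl5 and C57Bl6, and name no treatment. A single donor identifier is given for both pools, so they may be from 1 animal. The spread between libraries may then hold the sampling of cells and technical error, and no difference between animals. With 2 libraries of 1 group no exact two-sided permutation p can go below 0.5, so values are given per library with their SD and without a test. The tables held 24171434 estimated reads in replicate 1 and 27946180 in replicate 2, of which 4.28% and 5.32% came from added spike-in RNAs. The motor genes took 0.628% and 0.653% of the reads assigned to genes.

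Kinesins and cytoplasmic dynein are enzymes that turn ATP hydrolysis into steps along microtubules. In an axon, most kinesins carry cargo towards the synapse, and cytoplasmic dynein, acting with dynactin, carries cargo back to the cell body. Another set of kinesins builds the mitotic spindle, moves chromosomes and completes cell division, and is made mainly in dividing cells. Dynein 2 works inside cilia.

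The labelled cell type was checked first. All 7 markers of the list used for layer 5 pyramidal neurons were detected, among them Pcp4, Etv1 and Fezf2. Detected means listed at 1 or more in TPM (the transcripts-per-million value, which corrects for length and depth) in both libraries. Slc17a7 and Camk2a, also in this list, are not particular to layer 5. The summed TPM of the 7 was 2366 in replicate 1 and 4849 in replicate 2. Markers of other cells were present as well. Of 6 interneuron markers 5 were detected, with summed TPM of 3345 and 1291, and the exception was Vip, at 153 and 0.03. Sst was at 2506 and 844 TPM, Pvalb at 508 and 338 and Gad1 at 143 and 94.8. These were above Slc17a7, a marker of the layer 5 list, at 31.9 and 49.3, and Gad2 and Slc32a1 were under it in both libraries. All 5 astrocyte markers (summed TPM 347 and 383) and all 5 oligodendrocyte markers (423 and 546) were detected, as were 4 of 5 microglial markers (91.6 and 36.1), 2 of 3 of oligodendrocyte precursors (12.1 and 4.24) and 2 of 3 of endothelium (5.59 and 8.07). Of 5 ependymal markers only Dnah9 was detected, and Ccdc153, Tmem212 and Dnah11 were at 0 in both libraries. Of the 7 layer 5 markers 6 were higher in replicate 2, Camk2a barely so (83.4 and 84.4 TPM), and Bcl11b was higher in replicate 1 (12.2 and 10.2 TPM). Pcp4 held most of the sum, which without it was 232 and 381 TPM. All 6 interneuron and all 5 microglial markers were higher in replicate 1. The part of these cells in the levels of the motor genes was not tested.

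Detection divided the motor genes by role. Of the 56 genes, 33 were detected in both libraries, where 52.2% of all protein-coding genes were. At 10 TPM or more in both libraries stood 24 of the 56, against 28.1% of protein-coding genes. All 13 members of dynein 1, dynein 2 and dynactin were detected, as were 12 of the 13 transport kinesins, 3 of the 4 light chains and 4 of the 14 other kinesin-named genes. Of the 12 mitotic kinesins 1 was detected, or 3 (Kif22, Kif20b and Kif11) when 10 reads in both libraries are asked for in place of 1 TPM. The 4 genes without a read in either library were the mitotic Kif2b, Kif2c and Kif18b, and Kif12. A count of 0 allows up to 3 reads in each library.

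**Figure D1:**
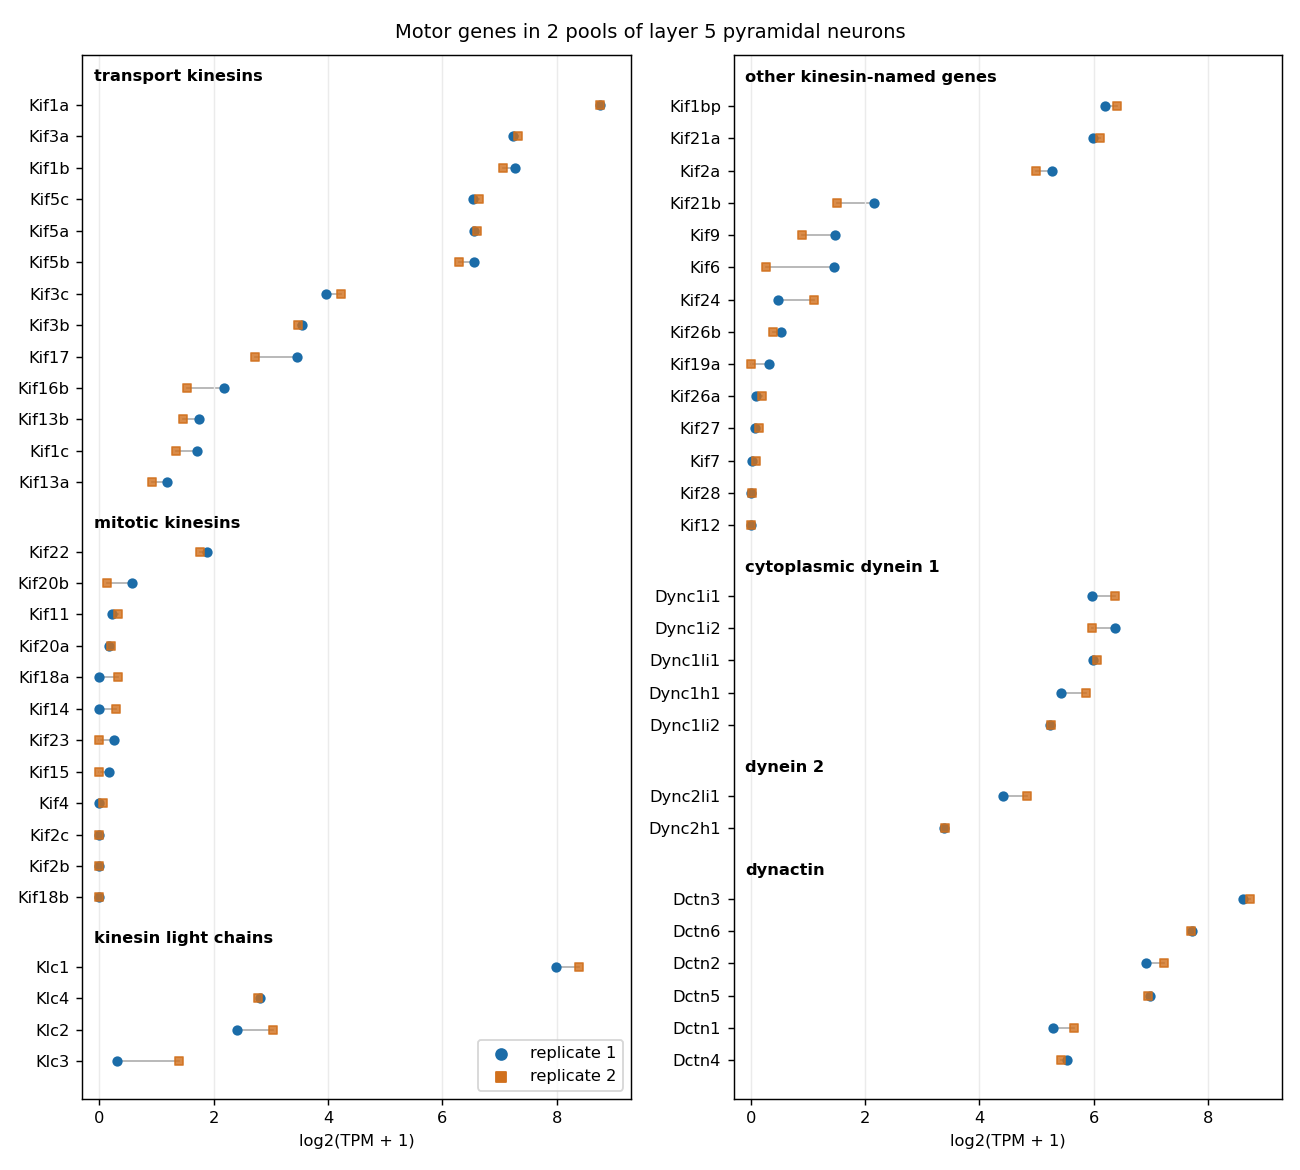
Level of each of the 56 motor genes as log2(TPM + 1), ordered within each role by the mean, with replicate 1 as circles, replicate 2 as squares and a grey line joining them. Kif1a, Dctn3 and Klc1 lie farthest to the right, and the mitotic kinesins other than Kif22 lie near 0.

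The transport kinesins were led by Kif1a, a kinesin-3 that carries synaptic vesicle precursors and dense core vesicles. Its level was 431 and 432 TPM in replicates 1 and 2, above 98.7% of protein-coding genes in each. Kif3a, a subunit shared by the heteromeric kinesin-2 motors, followed at 149 and 159 TPM. Kif1b, the close relative of Kif1a that also carries mitochondria, was at 153 and 132 TPM. The order of Kif3a and Kif1b was not the same in the 2 libraries.

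The 3 genes of the conventional kinesin heavy chain (kinesin-1) stood next, close to each other. Kif5c was at 91.3 and 98.3 TPM. Kif5a was at 93.3 and 96.0 TPM. Kif5b, the form made in most tissues, was at 93.3 and 76.9 TPM. On the log2(TPM + 1) scale Kif5c minus Kif5a was 0.00 ± 0.045 (SD, n = 2) and Kif5c minus Kif5b was 0.16 ± 0.27 (SD, n = 2), so neither difference was larger than its spread. Kif5a, Kif5b and Kif5c held 33.6%, 33.6% and 32.9% of their summed TPM in replicate 1, and 35.4%, 28.4% and 36.2% in replicate 2.

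The remaining transport kinesins were far lower. Kif3c, which pairs with Kif3a and is known from neurons, was at 14.7 and 17.8 TPM. Kif3b, the other partner of Kif3a, was at 10.65 and 10.2 TPM. Kif3a minus Kif3c was 3.17 ± 0.12 on the log2(TPM + 1) scale (SD, n = 2), and neither partner came near Kif3a in either library. Kif17, a homodimeric kinesin-2 that carries NMDA receptor vesicles into dendrites, was at 9.93 and 5.61 TPM, higher in replicate 1. In that library complete coding transcripts held 14.9% of its TPM and 16.7% of its reads. Kif17 shares 74 exonic bases with Sh2d5 on the same strand, which had 605 and 1012 reads. The last 4 were Kif16b, Kif13b, Kif1c and Kif13a, motors of endosomes and other vesicles, between 0.90 and 3.51 TPM. All 4 were higher in replicate 1.

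Because the kinesin-1 and kinesin-3 genes have close relatives, reads could be shared among them, and the sequence that encodes the conserved ATP-binding loop of the motor domain shows how far a pair of them differs at a conserved place. The 60 bases around this loop are printed for Kif5a and Kif5c from the reference transcripts of GENCODE M21, 5′ to 3′ in the sense of the transcript, with the bases that differ between the genes in capitals. Kif5a lies at chr10:127225696-127263348 and Kif5c at chr2:49619298-49774778 (GRCm38). The stretch is within the coding exons of each gene.
Kif5a: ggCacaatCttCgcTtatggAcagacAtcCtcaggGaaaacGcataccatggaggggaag
Kif5c: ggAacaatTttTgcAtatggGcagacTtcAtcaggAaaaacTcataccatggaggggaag
Of 60 bases, 51 were the same in both genes. Over whole transcripts, the main coding transcripts of Kif5a, Kif5b and Kif5c shared no run of 31 bases with each other. Kif1a-204 shared 5 of its 8165 such runs with Kif1b-203.

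The lead of Kif1a by TPM was not seen in its reads. By estimated reads Kif1a did not stand above Kif1b: it had 14989 reads in replicate 1 and 18960 in replicate 2, and Kif1b had 17840 and 19345. The deposited gene length by which the Kif1a reads were divided was 1839 bases in replicate 1 and 2057 in replicate 2, while its longest complete coding transcript has 8206 bases. For Kif1b the length was 5912 and 6629 bases, against 10233 for its longest complete coding transcript.

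Transcript estimates were analysed for replicate 1 only. In that library the transcript Kif1a-206, a coding fragment of 528 bases at the 5′ end of the gene whose 3′ end is annotated as not found, held 60.7% of the TPM of Kif1a on 2244 reads. Kif1a-208, a noncoding processed transcript of 570 bases, held 20.7%. The full-length Kif1a-204 held 14.1%, on 9822 reads. All complete coding transcripts of Kif1a together held 79.4% of its reads and 18.6% of its TPM. Of the 31-base runs of Kif1a-206, 77.9% also occur in Kif1a-204.

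Divided instead by the fixed length of the longest complete coding transcript, as RPKM (reads per kilobase of transcript, scaled to the total of gene reads; an alternative chosen after the data were seen), 5 of the 6 leading transport kinesins came to similar levels. On this scale Kif1a was at 78.9 and 87.3, Kif3a at 81.8 and 86.8, and Kif1b at 75.3 and 71.4. Kif5c was at 77.7 and 82.0 and Kif5a at 79.4 and 79.9. Kif5b was lower than these, at 51.2 and 41.8. The highest of the 5 was 1.09 times the lowest in replicate 1 and 1.22 times in replicate 2, where by TPM it was 4.72 and 4.5 times. Kif1a minus Kif1b was 1.59 ± 0.15 on the log2(TPM + 1) scale (SD, n = 2) and 0.18 ± 0.16 on the scale with fixed lengths. Kif5c minus Kif5b rose from 0.16 to 0.77.

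**Figure D2:**
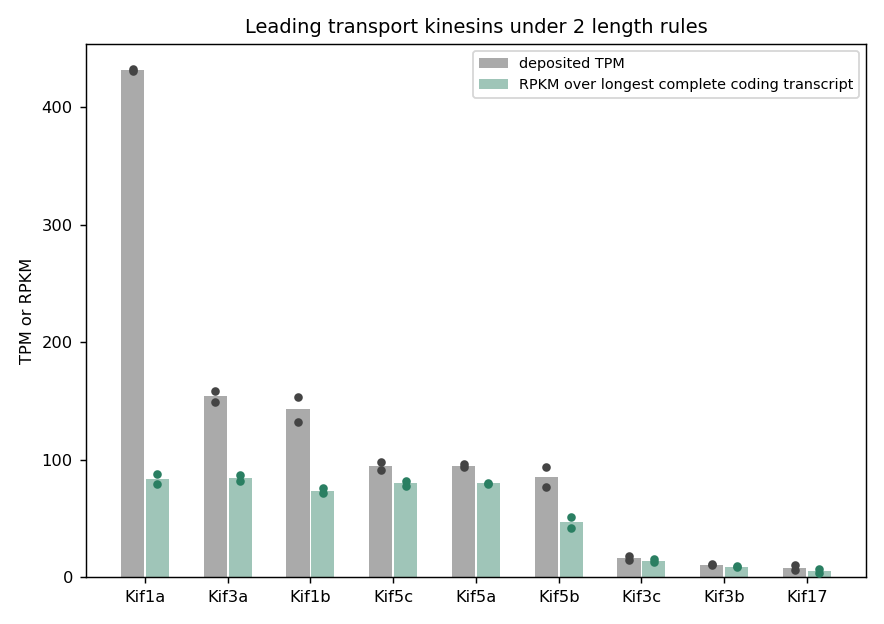
Levels of 9 transport kinesins as deposited TPM (grey) and as RPKM over the longest complete coding transcript (green). Bars are means of the 2 libraries and points are the libraries. Kif1a stands far above the others by TPM and level with Kif3a, Kif1b, Kif5c and Kif5a with fixed lengths.

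Other motor genes also divided their level between complete and other transcripts. Of the 24 members at 10 TPM or more in replicate 1, 8 have a single transcript in the table, among them Kif5a, Kif3b, Kif3c and Dctn2, so their share was fixed at 100%. Of the 16 with several transcripts, the leading transcript was a complete coding one in 14, a share that was not taken over all genes. At least 90% of TPM was in complete coding transcripts in 9 of the 16 (56.2%), against 48.0% of 5031 protein-coding genes with several transcripts at that level. The median share of the leading transcript was 58.6% in these 16 and 70.9% in those 5031 genes. Over all 24 the median was 84.5%, and at 1 TPM or more it was 63.2%. Under 60% in complete coding transcripts stood 5 genes, Kif1a, Dctn6, Kif1b, Kif5b and Dync1h1, or 31.2% of the 16, against 29.1% of the 5031. Kif5c, with 6 transcripts, was almost wholly complete coding.

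In Kif1b the retained-intron transcript Kif1b-205 held 29.9% of TPM beside 49.8% in the full-length Kif1b-203. In Kif5b an incomplete coding transcript of 2006 bases, Kif5b-202, held 46.0% on 1639 reads, beside 49.4% in Kif5b-201. In Dync1h1 the retained-intron transcript Dync1h1-204, 427 bases long, held 36.1% of TPM on 99.3 reads, while Dync1h1-201 held 52.6% on 6282 reads. In Dync1h1 a short transcript thus took a large part of TPM on few reads. In Dctn6 the retained-intron transcript Dctn6-210 led by reads as well, with 1663 reads and 59.3% of TPM, against 555.9 reads for the coding Dctn6-201. In Kif3a, a transcript annotated for nonsense-mediated decay, Kif3a-206, held 35.8% beside 47.3% in Kif3a-203. Such splits of reads are estimates. Of the 31-base runs of Kif3a-206, 93.6% also occur in Kif3a-203, and of those of Dctn6-210, 90.7% also occur in Dctn6-201. The shares were 68.8% for Kif1b-205 in Kif1b-203 and 68.3% for Dync1h1-204 in Dync1h1-201.

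**Figure D3:**
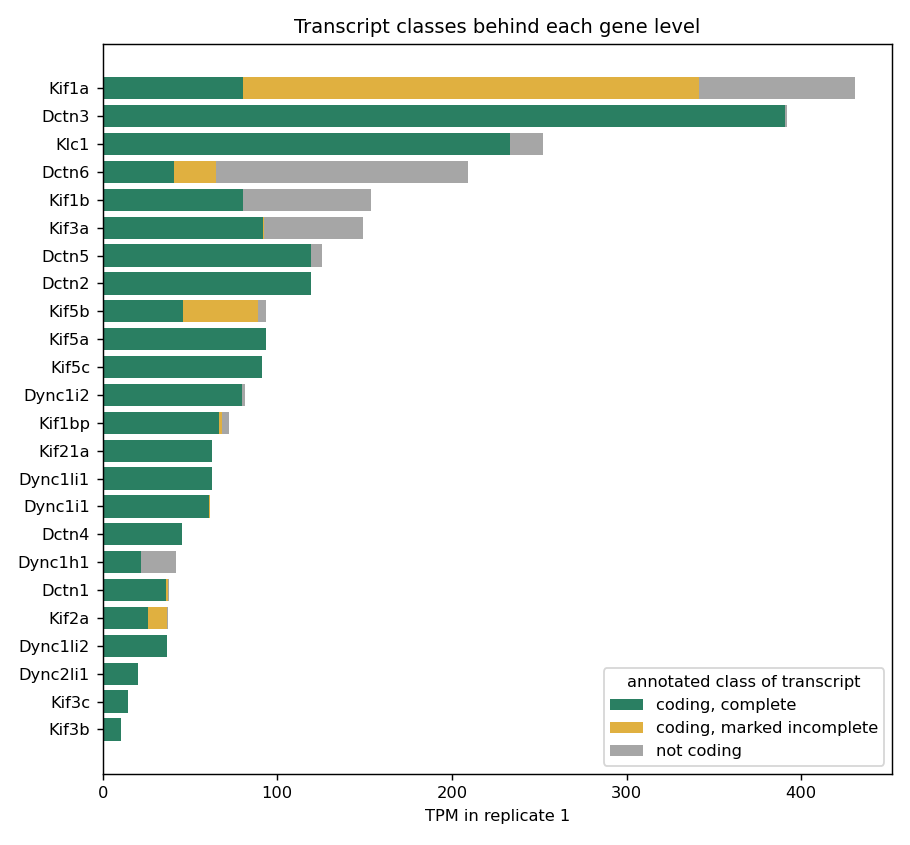
TPM in replicate 1 of the 24 motor genes at 10 TPM or more, divided by the annotated class of transcript: complete coding (green), coding but marked incomplete (yellow) and not coding (grey). Most of the bar of Kif1a is incomplete coding and most of that of Dctn6 is not coding, while Dctn3, Kif5a and Kif5c are almost wholly green.

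The mitotic kinesins were near 0. Kif22, a chromokinesin that binds DNA and pushes chromosome arms, was the only one detected, at 2.67 and 2.39 TPM from 105 reads in each library. It held 50.7% and 46.7% of all reads of the 12 mitotic genes, which summed to 207 and 225 reads, where the 13 transport kinesins had 74441 and 85460. Kif20b, a kinesin of cytokinesis, had 53 and 12 reads (0.48 and 0.10 TPM). Kif11, the bipolar spindle motor Eg5, had 16 and 27 reads (0.17 and 0.26 TPM). Kif20a, also of cytokinesis, had 9 and 12 reads, and it shares 1271 exonic bases with Cdc23 on the other strand, which had 793 and 891. Whether strand was used in counting is not given in the sources used here.

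A further 5 mitotic genes had reads in 1 library and none in the other. Kif14, needed for cytokinesis, had 0 and 45 reads. Kif18a, which aligns chromosomes at the spindle equator, had 0 and 19, and the chromokinesin Kif4 had 0 and 5. Kif4 shares 832 exonic bases with Pdzd11 on the other strand, which had 1889 and 2037 reads. Kif23, the motor of the central spindle, had 13 and 0 reads, and Kif15, which helps hold spindle poles apart, had 11 and 0. The microtubule depolymerases Kif2b and Kif2c, and Kif18b, were at 0 in both. Genes of proliferation measured beside them were low too: of 8, only Ccna2 was detected in both libraries, at 1.03 and 1.77 TPM. Ccnb1 (2.07 and 0.67 TPM) and Cdk1 (1.0 and 0.0 TPM) reached 1 TPM in replicate 1 only. Bub1, Aurkb and Top2a were at 0 in both.

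Set against each other, the median transport kinesin was at 14.7 TPM in replicate 1 and 17.8 in replicate 2, and the median mitotic kinesin at 0.06 and 0.075. The median of all protein-coding genes was 2.02 and 1.84 TPM. On the log2(TPM + 1) scale the transport median lay 3.89 above the mitotic median in replicate 1 and 4.13 in replicate 2, a mean difference of 4.01 ± 0.17 (SD, n = 2). The size of this difference depends on the pseudocount, since the mitotic levels are so low: with 0.1 in place of 1 it was 6.67. Without the mitotic genes under a mean of 1 TPM, which leaves Kif22 alone, it was 2.28. Summed TPM of the transport list was 280 and 301.5 times that of the mitotic list.

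As the lists were drawn, with earlier results of these data known, they overlapped through Kif22 only. Kif22 stood above 3 transport kinesins in replicate 1 and above 4 in replicate 2. Kif2a, a microtubule depolymerase as the mitotic Kif2b and Kif2c are, was placed in neither list. It was at 37.5 and 30.9 TPM, above the median transport kinesin in both libraries, and the comparison was not run with it as a mitotic gene. The highest of the other mitotic kinesins, at 0.48 and 0.26 TPM, stayed under the lowest transport kinesin, Kif13a, at 1.26 and 0.90. In pooled cells, fewer cells that express a gene and less of its RNA in each cell cannot be told apart.

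**Figure D4:**
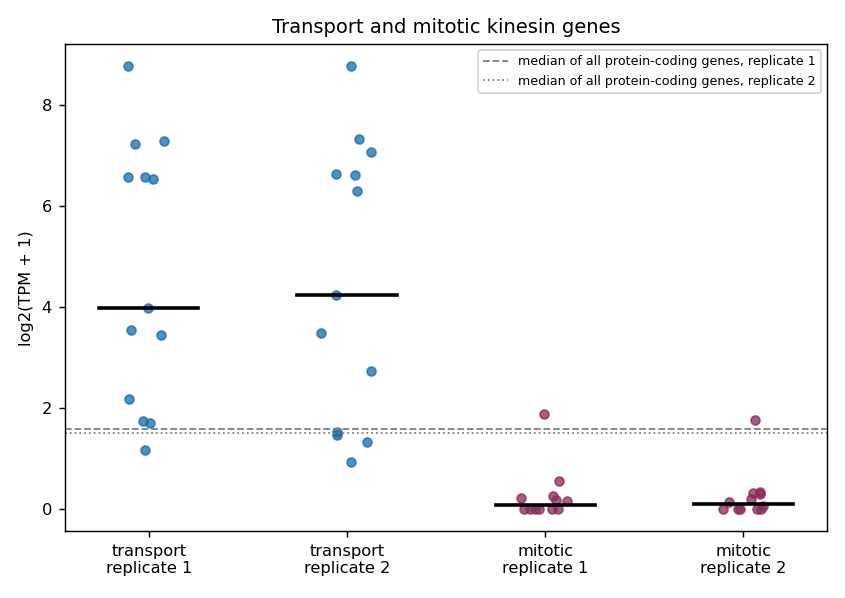
Level of each transport kinesin (blue, 13 genes) and mitotic kinesin (purple, 12 genes) as log2(TPM + 1) in each library, with black bars at the medians and grey lines at the median of all protein-coding genes. The single mitotic point above those lines in each library is Kif22.

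Promoter sequences were compared between these lists, because many genes of cell division carry the cell cycle genes homology region, a short element near the transcription start through which they are repressed outside division. Promoters, from 250 bases before to 50 bases after the RefSeq transcription start (GRCm38.p6), were given for 43 of the 56 members, among them 11 mitotic and 10 transport kinesins. Its core letters, TTTGAA, were searched on both strands, so TTCAAA in the sense of the gene is the same match. They occurred in 9 of 11 mitotic promoters, in 1 of 10 transport promoters (Kif1a), and in 18.5% of 17492 protein-coding genes with a promoter. The mitotic promoters without them were those of Kif18a and Kif2b. Within 25 bases of the start, a window chosen after the positions were seen, they occurred in 7 of 11 mitotic promoters, 0 of 10 transport promoters and 2.55% of protein-coding genes. These 7 are printed as 30 bases in the sense of the gene, 5′ to 3′, with the matched letters in capitals, followed by the one match of a transport kinesin. The stretch of Kif20b holds 2 matches side by side, and Kif15 and Kif22 have a second match farther from the start, not shown.
Kif4, chrX:100626072-100626101: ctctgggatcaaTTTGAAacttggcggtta
Kif11, chr19:37376351-37376380: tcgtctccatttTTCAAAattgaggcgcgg
Kif15, chr9:122951050-122951079: tggggcgccaaaTTCAAAtctgcggccatc
Kif18b, chr11:102925104-102925133: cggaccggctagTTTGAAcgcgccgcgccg
Kif20b, chr19:34922353-34922382: gagccgccattgTTTGAATTTGAAaaccgg
Kif22, chr7:127042420-127042449: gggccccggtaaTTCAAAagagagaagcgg
Kif23, chr9:61946780-61946809: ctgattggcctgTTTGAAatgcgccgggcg
Kif1a, chr1:93082507-93082536: tttgacagcctcTTTGAAcattgctcctaa
The match lay 17 bases before the start in Kif22, which is the detected mitotic gene, 19 bases before it in Kif11 and in Kif15, and 2 bases after it in Kif23. In Kif1a it lay 44 bases before a RefSeq start that is inside the gene, away from its first exon. For some genes the RefSeq start lies far from the annotated gene start: 328 bases in Kif4, 1505 in Kif14, 3867 in Kif2c and, of the transport kinesins, 11816 in Kif17. Among genes with a RefSeq start within 100 bases of the annotated gene start, 6 of 8 mitotic and 1 of 8 transport kinesins had a match in any promoter. The transport match is that of Kif1a, which has 2 promoters, and it lies in the one at the internal start. Within 25 bases of a start, 6 mitotic and 0 transport kinesins of these had a match. A match of 6 letters is a description and not a shown binding site.

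Of the other motifs searched on both strands, CCAAT was found in 7 of 11 mitotic, 3 of 10 transport promoters and in 42.3% of protein-coding genes, the reference for all motifs here. Its longer form ATTGGCT, which contains CCAAT on the other strand, was found in 4 mitotic promoters and no transport promoter, against 10.6%. The GC box GGGCGG occurred in 8 of 10 transport and 6 of 11 mitotic promoters, against 49.2%. TGACGTCA, the cAMP response element, occurred in the transport promoters of Kif17 and Kif5c, in the mitotic Kif18a and in 2.54% of genes. The variant of the cell cycle element, TTCGAA, was found in no promoter of either list and in 2.13% of genes. The letters GCGCGAA, part of an E2F site, were found in no mitotic promoter, in the transport promoter of Kif16b and in 2.41% of genes. Another form of the E2F site, TTCCCGC, was found in neither list and in 6.84% of genes. The ratio of observed to expected CpG, which is high in CpG islands, had medians of 0.90 in mitotic and 0.83 in transport promoters, against 0.57 over promoters of protein-coding genes. Both lists were thus above that median, and so was every other role of the motor genes. The medians of those roles ran from 0.69 in dynein 2, with 1 promoter, to 0.92 in the light chains. Over all members with a promoter the median was 0.79.

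The other kinesin-named genes fell into a few at high levels and many near 0. Kif1bp was at 72.6 and 84.2 TPM. Kif21a, a kinesin-4 that restrains microtubule growth, was at 62.5 and 67.6 TPM. Kif2a, a microtubule depolymerase that limits axon branching, was at 37.5 and 30.9 TPM. It shares 1229 exonic bases with Dimt1 on the other strand, which had 753 and 838 reads beside 2596 and 3027 for Kif2a. Kif21b, a motor of dendrites and axons, was at 3.45 and 1.85 TPM.

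The remaining 10 of this list were at or under 1.79 TPM in both libraries, and none was detected in both. Kif9 and Kif6, associated with motile cilia, were at 1.79 and 0.86 TPM and at 1.74 and 0.20 TPM, both higher in replicate 1. Kif6 rested on 58 and 11 reads. Kif24, a regulator of ciliogenesis, was at 0.39 and 1.14 TPM. The Hedgehog pathway kinesin Kif7 and its relative Kif27 had 1 and 5 reads and 4 and 11 reads. Kif12 had none.

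Among the kinesin light chains, which link kinesin-1 to its cargo, nearly all came from Klc1. It was at 252 and 334 TPM, higher in replicate 2, and held 96.0% and 95.8% of the summed TPM of the 4 genes. Klc4 was at 6.01 and 5.87 TPM, and Klc2 at 4.32 and 7.20 TPM. Klc1 minus Klc2 was 5.46 ± 0.16 on the log2(TPM + 1) scale (SD, n = 2), and the levels of Klc1 and of the others did not come near each other. Klc3 was at 0.24 and 1.64 TPM, on 8 and 63 reads, and it shares 744 exonic bases with Ercc2 on the other strand. In replicate 1, Klc1-202 held 55.9% of the TPM of Klc1 and Klc1-203 held 31.5%, both complete coding.

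By gene TPM, all 5 subunits of cytoplasmic dynein 1 lay from 36.6 to 81.5 in replicate 1 and from 37.2 to 81.9 in replicate 2. With fixed transcript lengths the range was wider, and Dync1h1 was the lowest in both libraries, at 19.4 and 19.5 RPKM. The highest on that scale were Dync1i2 at 66.6 in replicate 1 and Dync1i1 at 64.1 in replicate 2. Complete coding transcripts of Dync1h1 summed to 22.05 TPM in replicate 1. The intermediate chains, which bind dynactin and the light chains, come from Dync1i1, known mainly from neurons, and Dync1i2, made widely. Dync1i1 was at 61.6 TPM in replicate 1 and 81.9 in replicate 2. Dync1i2 was at 81.5 TPM in replicate 1 and 61.3 in replicate 2. The 2 genes thus changed places between the libraries, while their means were almost the same, 71.8 ± 14.4 and 71.4 ± 14.3 TPM (SD, n = 2).

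In CPM (the counts-per-million value, scaled by TMM) the ratio of replicate 1 to replicate 2 was 0.75 for Dync1i1, with a 95% exact binomial interval of 0.71 to 0.78, and 1.34 for Dync1i2, with an interval of 1.28 to 1.40. These intervals cover counting error only, and amplified reads without molecular identifiers are not independent molecules. All markers of the layer 5 list except Bcl11b were higher in replicate 2, as Dync1i1 was, with Camk2a almost level. The oligodendrocyte markers other than Mog were also higher in replicate 2. Higher in replicate 1, as Dync1i2 and Kif17 were, stood all 6 interneuron and all 5 microglial markers, and the oligodendrocyte precursor markers Vcan, Pdgfra and Cspg4. Astrocyte and endothelial markers went both ways. The part of any of these cells in these ratios was not tested. The light intermediate chains were nearer to each other between libraries: Dync1li1 was at 62.5 and 65.4 TPM and Dync1li2 at 36.6 and 37.2 TPM. Dync1h1, the heavy chain that holds the motor domain, was at 41.9 and 57.1 TPM. Its estimated reads, 6428 and 7386, gave a CPM ratio of 0.98 (interval 0.94 to 1.01), and its deposited length was 7771 bases in replicate 1 and 5878 in replicate 2, so the library with the shorter length had the higher TPM.

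Dynein 2 stood lower. Dync2li1, its light intermediate chain, was at 20.4 and 27.4 TPM, and Dync2h1, its heavy chain, at 9.39 and 9.52 TPM. The median of dynein 1 lay 1.96 ± 0.16 above that of dynein 2 on the log2(TPM + 1) scale (SD, n = 2). With fixed transcript lengths this difference was 2.34. The 16 axonemal dynein heavy chains, motors of motile cilia, were lower again, and 3 were detected. The highest was Dnah7a at 7.27 and 1.96 TPM, and Dnah9, also detected, is the ependymal marker given above. Dnhd1, next by mean, was at 0.95 and 2.39 TPM.

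Dynactin, which tethers dynein to cargo and keeps it on the microtubule, was led by its small subunit Dctn3 at 392 and 424 TPM. Dctn6 and Dctn5, at the pointed end of its actin-like filament, were at 209 and 207 TPM and at 126 and 122 TPM. Dctn2, or dynamitin, was at 119 and 149 TPM. Dctn4, another subunit of the pointed end, was at 45.5 and 41.9 TPM, and Dctn1, the large subunit that binds microtubules, at 38.2 and 49.3 TPM. By gene TPM Dctn1 and Dctn4 overlapped in level, and every other listed Dctn subunit lay above both in both libraries. By complete coding transcripts, in replicate 1, Dctn6 was at 40.9 TPM, under Dctn4 at 45.5 and above Dctn1 at 36.0.

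The median of dynactin lay 1.05 ± 0.11 above that of dynein 1 on the log2(TPM + 1) scale (SD, n = 2), and 0.97 above it with fixed lengths. Dctn2 and Dctn1 were higher in replicate 2, with CPM ratios of 0.80 (interval 0.77 to 0.83) and 0.77 (interval 0.73 to 0.81). With fixed lengths Dctn6 was at 98.4 ± 6.3 RPKM (SD, n = 2), within the spread of Dctn2 at 109 ± 16 and Dctn5 at 97.1 ± 3.3, and Dctn3 led at 313 ± 13. These values count all reads of a gene, and 62.4% of the reads of Dctn6 in replicate 1 were assigned to noncoding transcripts. That split is an estimate, since most 31-base runs of Dctn6-210 also occur in the coding Dctn6-201.

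Between the libraries, 28 of the motor genes had a mean of 10 CPM or more, and 0 of them were 2-fold or more apart, where 4.47% of 9189 genes at that minimum were. No test across genes was possible with 1 library on each side, so no unadjusted p can be given. Scaling by DESeq2 size factors and by total reads also gave 0. Ratios of these 28 ran from 0.74, in Klc1 and Dync2li1, to 1.84, in Kif17. The counting interval left out 1 in 20 of the 28, of which 7 were higher in replicate 1 and 13 in replicate 2. Over all genes at the minimum it left out 1 in 75.5%, with 35.2% higher in replicate 1 and 40.2% in replicate 2, so 20 of 28 is near the share of all genes.

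The median size of the log2 ratio was 0.11 in the motor genes and 0.26 in all genes at the minimum. The motor genes were also more abundant, with a median of 150 CPM against 40.8, so the lists are not matched in level. Kif17 had 536 and 326 reads and an interval of 1.60 to 2.12. Scaled by the spike-in RNAs, which moved the median log2 ratio of all genes from -0.02 to 0.33, Kif17 alone passed 2-fold, where 7.21% of all genes did. Among genes under the minimum, Kif20b and Kif6 were more than 2-fold higher in replicate 1 with 1 CPM added to both values, and Klc3 and Kif14 in replicate 2, each on few reads. At a mean of 1 CPM or more these were 3 of 40 members, without Kif14, against 10.4% of all genes, and with no minimum 4 of 56, against 8.26%.

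**Figure D5:**
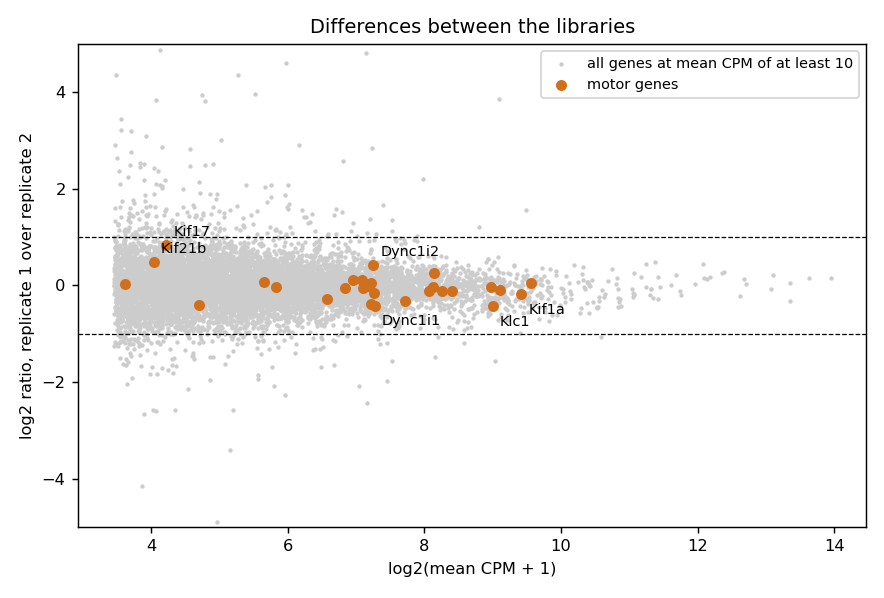
Ratio of replicate 1 to replicate 2 as log2((CPM + 1)/(CPM + 1)) against the mean level, for all genes at a mean of 10 CPM or more (grey) and the 28 motor genes among them (orange), with dashed lines at 2-fold. All orange points lie between the dashed lines, Kif17 nearest to the upper one, and 5 grey genes lie beyond the plotted range.

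Genes that work with the motors were measured in lists chosen by function. Of 21 adaptors and regulators 20 were detected and 14 were at 10 TPM or more in both libraries. Kifap3, which joins Kif3a and Kif3b to cargo, was at 121 and 125 TPM, above Kif3b and Kif3c. Kif3a was higher than Kifap3 by TPM. The complete coding transcripts of Kif3a summed to 91.7 TPM in replicate 1, a sum not made for Kifap3. Kif3a had 5986 and 7259 reads and Kifap3 had 9415 and 10975, which are not corrected for length. Map7d2, which recruits kinesin-1 to microtubules, was at 92.2 and 119 TPM, and Pafah1b1, the dynein regulator Lis1, at 66.8 and 55.4 TPM. The single adaptor not detected was Rilp, at 0.54 and 0.83 TPM, which ties dynein to late endosomes.

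All 9 dynein light chains were detected, and their levels spanned a far wider range than those of the larger chains. Dynll1, a light chain also found in many complexes without dynein, was at 3222 and 2486 TPM. Dynlrb1 was at 996 and 959 TPM and Dynlt3 at 225 and 176 TPM. The lowest was Dynlrb2 at 2.27 and 1.69 TPM. All 6 further subunits of dynactin were at 10 TPM or more, led by the actin capping subunits Capza2 (282 and 254 TPM) and Capzb (164 and 207 TPM) and by Actr10 (92.3 and 91.6 TPM), of the pointed end.

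Of the kinesins with a motor domain at the C-terminal end, which walk towards the minus end of microtubules, Kifc2 was at 18.03 and 29.0 TPM and Kifc3 at 2.55 and 3.49 TPM. The mitotic relatives Kifc1 and Kifc5b were at 0 in 1 library each, with 0.56 and 0.24 TPM in the other. Cenpe, the kinesin of the kinetochore, was at 0.38 and 0.50 TPM. Kifc1, Kifc5b and Cenpe were thus under 1 TPM in both libraries, as were all mitotic members other than Kif22.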

How the data were processed

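RNA-seq of 2 neuron pools was analysed from tables quantified on mm10 with GENCODE M4, per the file headers and notes deposited with them; how reads were aligned and quantified, and whether by strand, is not given in the sources used here. The authors deposited an expected count (estimated reads), TPM and FPKM per gene, with a posterior SD of the count (a score in reads); for replicate 1 they also deposited estimated counts, TPM and the percent of each gene's TPM per transcript. Symbols and biotypes came from GENCODE M21 (42462 of 43346 genes matched). Levels were compared as log2(TPM + 1). Expected counts were rounded and scaled with edgeR 4.0.16 (TMM, R 4.3.3) to CPM; ratios were taken as log2((CPM + 1)/(CPM + 1)) at a mean of 10 CPM or more, with a 2-fold limit and 95% exact binomial intervals. DESeq2 1.42.0 size factors, totals and spike-in totals were alternatives. Scripts were tested on simulated data. The members and lists were chosen with earlier results of these data known. Named were all members at a mean of 10 TPM or more, the 3 highest of each role, members 2-fold apart, those at 0 in both libraries, and the 3 highest of each partner list; others named were chosen after their values were seen.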

Additional observations from a re-analysis of the deposited data

Results flagged for a closer look

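The antisense gene Kif16bos, which the name rule matches but which is not protein-coding and so is no member, had 6 reads in replicate 2, above the 3 reads that a count of 0 allows, and 1 read in replicate 1. Its signal lies outside the comparisons above. The pseudogenes Kif4-ps and Kif22-ps had 0 reads in both libraries.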

How the results depend on the processing

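Differences of log2(TPM + 1) kept their direction under every alternative run, except that Kif5c minus Kif5a and Kif5c minus Kif5b, both within their spread, were negative in replicate 1. Transport minus mitotic kinesins moved beyond its spread to 6.67 with a pseudocount of 0.1, 2.28 with members at a mean of 1 TPM or more, 4.31 with means, 3.75 with FPKM, 4.53 with TPM over nuclear protein-coding genes and 3.80 with fixed transcript lengths. Fixed lengths also moved dynein 1 minus dynein 2 to 2.34, Kif5c minus Kif5b to 0.77, Kif1a minus Kif1b to 0.18, Kif3a minus Kif3c to 2.54 and Klc1 minus Klc2 to 5.72, which a pseudocount of 0.1 moved to 5.68. With 1 replicate left out, the ranges were 3.89 to 4.13 (transport minus mitotic), 0.98 to 1.13 (dynactin minus dynein 1), 1.85 to 2.07 (dynein 1 minus dynein 2), -0.03 to 0.03 (Kif5c minus Kif5a), -0.03 to 0.35 (Kif5c minus Kif5b), 1.48 to 1.70 (Kif1a minus Kif1b), 3.08 to 3.26 (Kif3a minus Kif3c), 5.35 to 5.57 (Klc1 minus Klc2) and 35 to 36 (members detected). Of 56 members, 33 were detected, and 35 at 0.5 TPM, 27 at 5 TPM and 40 at 10 reads. The count of members 2-fold apart went from 0 to 1 of 28 with spike-in totals, 3 of 40 at a mean of 1 CPM or more and 4 of 56 with no minimum, against 7.21%, 10.4% and 8.26% of all genes. No paired analysis was possible because there is 1 group. The mitotic genes other than Kif22 rest on under 60 reads each, so their levels have wide counting error.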
